A study of Homo sapiens with 2 samples.

Results

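The genes described here are the human histone genes whose current symbols begin with H1-, H2AC, H2BC, H3C or H4C followed by a number. RefSeq holds 74 such protein-coding genes, and 71 of them had a transcript in the deposited table that could be named, of 34224 genes with a named transcript in all, and 70 are described. A further 3 (H2AC25, H2BC26 and H3C15) were not analysed here. The 70 genes comprised 9 of linker histone H1, 16 of H2A, 18 of H2B, 12 of H3 and 15 of H4.

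The study grew HepG2, an established human liver cancer line, carrying a doxycycline (Dox)-inducible cassette for SAMD4B, an RNA-binding protein related to Smaug of the fly. One group was grown without Dox and the other with 1 µg/ml Dox for 48 h, and both carried the cassette. Whether the line is a single clone is not given in the sources used here, and cells that lack the cassette but received Dox were not analysed here. The effects of Dox and of SAMD4B therefore cannot be told apart. Each group has 1 library of polyadenylated RNA, so no difference below has a replicate check, no test is made, and each value describes these 2 libraries only.

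Most histone protein is made while DNA is copied, from clustered genes with a single exon. Their main mRNAs end just after a short stem-loop that is bound by the stem-loop binding protein SLBP, and they carry no poly(A) tail. A minority of transcripts from the same genes runs on past the stem-loop to a polyadenylation signal. RNA selected by its poly(A) tail therefore holds mainly this minority, and its level is not the level of all histone mRNA in the cells.

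The stem-loop was searched in the GENCODE release 29 transcripts of these genes as GGYYYT, 4 bases of any kind and the exact reverse complement of the first 6 bases. It is the feature that separates these mRNAs from polyadenylated ones, so the forms found are shown as DNA, 5′ to 3′, with the paired bases of the stem in capitals and the loop in lower case. The first form was found in 14 genes, among them H2AC6, H2AC19, H2BC15, H2BC21 and H3C10. The second was found in 5 genes, all of class H4 (H4C2, H4C5, H4C8, H4C11 and H4C16). The third was found in 4 genes (H2BC4, H2BC5, H2BC7 and H3C8), the fourth in 3 (H4C9, H4C14 and H4C15) and the fifth in H3C6 only, among these 70 genes.
H2AC6 form: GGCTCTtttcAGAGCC
H4C16 form: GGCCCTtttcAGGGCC
H2BC4 form: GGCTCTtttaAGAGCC
H4C14 form: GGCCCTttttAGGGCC
H3C6 form: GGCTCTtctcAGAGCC

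The H4 stems differed from the H2A, H2B and H3 stems in their base pairs, and the forms also differed in the loop. The stem-loop began 23 bases after the stop codon in H4C11 and 68 bases after it in H2AC18 and H2AC19, the nearest and the farthest. Of the 35 genes whose model has at least 40 bases after the last coding base, 27 (77.1%) had a stem-loop within 100 bases after the stop codon. Among protein-coding transcripts of all other genes with at least 100 bases after the stop codon, 9 of 50656 (0.0178%) had one. H2AX, a histone gene outside the chosen symbols, was among them. The first share counts genes by any of their models and the second counts single transcripts, under different length limits. The 8 genes without this sequence were H1-10, H1-4, H1-6, H1-7, H1-8, H2AC11, H2BC11 and H4C3. No match says only that these letters are not in the window of that model. H1-10 is known as a replication-independent linker histone with an ordinary poly(A) tail. The symbol rule takes it in although the label of replication-dependent genes does not describe it, so sums are given with and without it.

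The authors deposited TPM, an abundance that divides reads by transcript length and scales each library to the same total. The steps of the low values gave estimated depths of 18691932 fragments without Dox and 24275821 with Dox. Fragment ratios below are with Dox over without Dox, relative to depth, with exact 95% binomial intervals (Clopper-Pearson) that cover counting error only. SAMD4B read 47.5 TPM without and 261 TPM with Dox (fragment ratio 6.95, interval 6.51 to 7.42). All 10 hepatocyte markers checked were at 1 TPM or more in the mean of both libraries. Of 10 markers of other cell types, 3 were. SOX9 was at 90.1 TPM without and 88.7 TPM with Dox, CD68 at 10.7 and 11.3 TPM and PECAM1 at 4.57 and 4.55 TPM. PTPRC, VWF and KRT7 were listed at 0 in both libraries. In bulk RNA, fewer cells in S phase and less histone RNA per such cell cannot be told apart.

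The summed polyadenylated RNA of these genes was nearly the same in both libraries. All 70 together had 218 TPM without and 220.4 TPM with Dox, 0.0218% and 0.0220% of the total (fragment ratio 0.99, interval 0.93 to 1.04). Without H1-10 the sum was 161 TPM and 167 TPM (fragment ratio 1.05, interval 0.98 to 1.14). Both intervals include 1. Over the same libraries all 21 genes of the DNA replication fork and S phase that were checked were lower with Dox, beside 47% of all genes compared.

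Most of these genes were low or absent in the polyadenylated RNA. Of the 70, 22 were listed at 0 in both libraries, 43 were above 0 without Dox and 45 with Dox. A limit of 3 fragments on a transcript of 500 nt is 0.984 TPM without Dox and 0.808 TPM with Dox, so a value of 0 does not show that a gene was silent. The genes listed at 0 in both numbered 3 of class H1, 5 of H2A, 4 of H2B, 5 of H3 and 5 of H4. A further 20 were above 0 but below a mean of 1 TPM, the threshold for a comparison. H1-4 lay just under it (0.55 TPM without Dox, 1.22 TPM with Dox) and H4C15 just over it (0.39 and 1.64 TPM). The remaining 28 were compared one by one, and 5 of them had a mean of at least 10 TPM: H1-10, H1-2, H2AC19, H2AC6 and H2BC4.

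**Figure D1:**
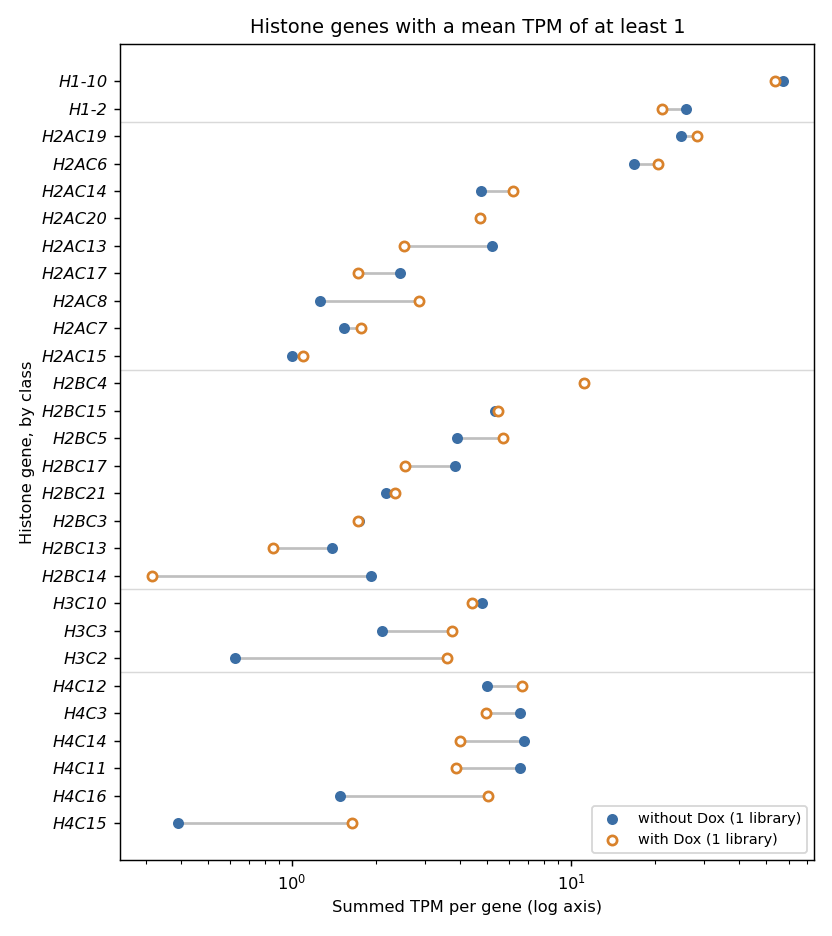
Summed TPM per gene on a log axis for the 28 histone genes with a mean of at least 1 TPM, grouped by class, with filled points for the library without Dox and open points for the library with Dox (1 library each). H1-10 stands at 57.3 and 53.7 TPM, while every gene of class H3 lies below 5 TPM in both libraries.

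Of the 28 genes, 15 were higher with Dox and 13 lower, beside 53% and 47% of the 11581 genes compared in all. Their median log2 fold change, on the log2(TPM + 1) scale, was 0.02, as was that of all genes compared. A difference of at least 1.5-fold upward was found for 5 of the 28 (H3C2, H4C16, H4C15, H2AC8 and H3C3), beside 5.31% of all genes. A difference of at least 1.5-fold downward was found for 4 (H2BC14, H2AC13, H4C11 and H4C14), beside 3.9%. All 9 of these genes had low values, and 19 of the 28 genes rested on fewer than 20 estimated fragments without Dox. The counting interval of the fragment ratio lay above 1 for 3 genes (H2AC6, H3C2 and H4C15), beside 23.9% of all genes, and below 1 for 3 (H1-10, H1-2 and H4C14), beside 28.2%.

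Linker histones bind the DNA between nucleosomes. H1-10 (chromosome 3, 129314771 to 129316277) was at 57.3 and 53.7 TPM (ratio of fragments 0.91, interval 0.84 to 0.99). It made up 68.2% and 70.3% of the class in these values and had 1026 and 1216 estimated fragments, so even a small difference lay outside counting error.

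H1-2 (chromosome 6, 26055787 to 26056428), a linker histone of the main cluster, was the one replication-dependent H1 gene that reached a mean of 1 TPM. It read 25.8 TPM without and 21.1 TPM with Dox, from 166 and 169 estimated fragments. Its fragment ratio was 0.78, with an interval of 0.63 to 0.98. The 9 H1 genes together were at 83.9 and 76.4 TPM (fragment ratio 0.90, interval 0.83 to 0.97). Without H1-10 they were at 26.7 and 22.7 TPM (fragment ratio 0.82, interval 0.66 to 1.01), nearly all of it H1-2. Both compared H1 genes were thus lower with Dox, beside 47% of all genes compared.

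H2A pairs with H2B in the nucleosome. The H2A genes summed to 62.8 TPM without and 70.4 TPM with Dox (fragment ratio 1.14, interval 1.02 to 1.28). Of the 9 compared, 6 were higher and 3 lower, beside 53% and 47% of all genes compared. Their median log2 fold change was 0.12. H2AC19 and H2AC6 made up most of the class.

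H2AC19 (chromosome 1, 149851061 to 149851624) was at 24.7 and 28.2 TPM (ratio of fragments 1.08, interval 0.83 to 1.42). Its near-identical copy H2AC18 was listed at 0 in both libraries, and 97.2% of the 31-base words of the H2AC19 model also occur in H2AC18. The value is therefore that of the pair, and the split between the copies is uncertain.

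H2AC6 (chromosome 6, 26124145 to 26139116) is known to make polyadenylated, spliced transcripts beside its stem-loop mRNA. It read 16.8 TPM without and 20.5 TPM with Dox, with 331 and 514 estimated fragments, the most of any H2A gene. Its fragment ratio of 1.20 had an interval of 1.04 to 1.38. All 3 of its listed transcripts have 2 exons. The models of 1654 and 1668 nt hold the stem-loop shown above and run on for 1114 and 1128 bases after it to a polyadenylation signal. Those had 6.16 and 9.13 TPM, and 8.65 and 9.88 TPM, and the model of 1462 nt, without the stem-loop, was at 2.01 and 1.49 TPM. The higher value with Dox thus lay on transcripts whose release 29 models extend past the stem-loop. The transcript of 1654 nt was deposited in a newer version, and its deposited end is not known here. That of 1668 nt is annotated as subject to nonsense-mediated decay and not as protein-coding. No H2AC6 model of release 29 ends at the stem-loop, so RNA that ends there could not be told apart.

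The other H2A genes had few fragments. H2AC14 was at 4.75 and 6.22 TPM, and H2AC20 at 4.73 and 4.72 TPM. H2AC13 was at 5.22 and 2.52 TPM, from 16 and 10 fragments (fragment ratio 0.48, interval 0.20 to 1.13). H2AC13 and H2AC14 share 84.6% of the words of the H2AC14 model, and their sum was 9.97 and 8.74 TPM (fragment ratio 0.80, interval 0.46 to 1.38). The opposite directions of these copies are thus not held by their sum. H2AC8 was at 1.26 and 2.85 TPM, from 4 and 11 fragments (fragment ratio 2.12, interval 0.63 to 9.12). H2AC17 was at 2.44 and 1.72 TPM, H2AC7 at 1.54 and 1.77 TPM and H2AC15 at 1.00 and 1.10 TPM. Every one of these intervals included 1. Of the H2AC7 words, 98.1% occur in an overlapping gene on the same strand. H3C12, which overlaps H2AC17 on the same strand, likewise holds 87.1% of the H2AC17 words. The split of fragments is thus uncertain for both.

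The H2B genes summed to 33.5 TPM without and 31.4 TPM with Dox. Their fragment ratio, without H2BC12, which had no fragment estimate, was 1.07 (interval 0.92 to 1.24). TPM, which gives short transcripts more weight than fragments do, thus differed in direction from the fragments, and the interval includes 1. Of the 8 compared, 4 were higher and 4 lower, beside 53% and 47% of all genes compared, with a median of -0.01. H2BC4 (chromosome 6, 26114873 to 26123926), the H2B neighbour of H2AC6, was at 11.1 TPM in both libraries (fragment ratio 0.95, interval 0.66 to 1.37).

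H2BC15 had the most fragments of the class, 115 and 184, on transcripts of up to 4137 nt. It was at 5.35 and 5.49 TPM (ratio of fragments 1.23, interval 0.97 to 1.57). It overlaps H2AC15 on the opposite strand and H2AC16 on the same strand, and whether the library preparation kept strand is not given in the sources used here. H2BC21, on chromosome 1, was at 2.17 and 2.34 TPM (ratio of fragments 1.05, interval 0.75 to 1.49), and H2BC5 at 3.92 and 5.68 TPM (1.65, interval 0.85 to 3.37). H2BC17 was at 3.85 and 2.54 TPM, H2BC3 at 1.75 and 1.72 TPM and H2BC13 at 1.39 and 0.86 TPM. H2BC14 had the lowest log2 fold change of the 28 genes, -1.15, but from 5 fragments without Dox and 1 with Dox (1.92 and 0.32 TPM, interval 0.0033 to 1.38).

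**Figure D2:**
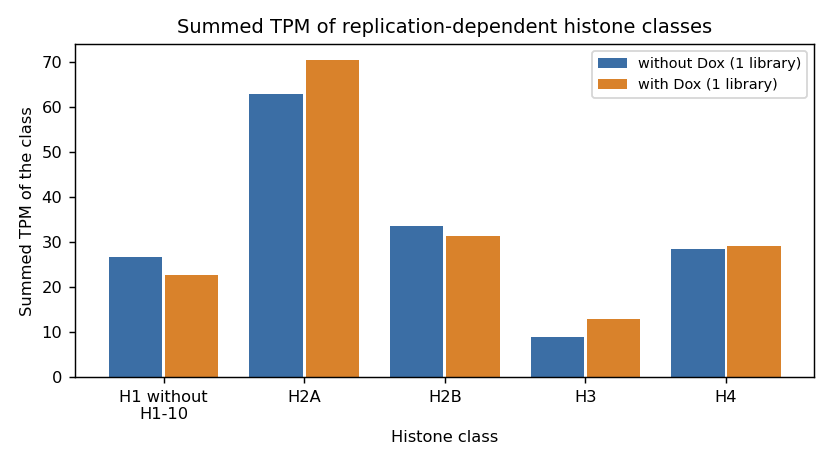
Summed TPM of each histone class without Dox (blue) and with Dox (orange), 1 library each, with class H1 drawn without H1-10. Class H2A is the highest at 62.8 and 70.4 TPM, and class H3 the lowest at 9.03 and 13.01 TPM.

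The H3 genes code for the replication-dependent H3.1 and H3.2 proteins. They summed to 9.03 TPM without and 13.01 TPM with Dox, a log2 ratio of 0.53, the largest difference of the 5 classes on the TPM scale. In fragments, 86 and 115, the ratio was 1.03 (interval 0.77 to 1.38). H3C4, at 0.59 TPM without and 1.03 TPM with Dox, had no fragment estimate and is in the TPM sum only. The difference in TPM came from 2 short single-exon genes, and without H3C2 and H3C3 the log2 ratio was -0.15.

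H3C2 (chromosome 6, 26031650 to 26032060) read 0.63 TPM without and 3.59 TPM with Dox, from 2 and 14 fragments. Its log2 fold change of 1.498 was the largest of the 28, and its fragment ratio of 5.39 had an interval of 1.24 to 48.9. H3C3 (chromosome 6, 26045411 to 26045821) was at 2.10 and 3.75 TPM, from 6 and 13 fragments (1.67, interval 0.59 to 5.35). Only 8.14% and 7.61% of their words occur in another histone transcript. H3C10 (chromosome 6, 27810064 to 27811300), with a longer transcript and more fragments, was at 4.81 and 4.40 TPM (0.90, interval 0.64 to 1.27). Its share of the class was 53.2% and 33.8%.

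The H4 genes nearly all code for the same H4 protein, with which H3 pairs. They summed to 28.5 TPM without and 29.2 TPM with Dox (fragment ratio 1.01, interval 0.78 to 1.32). Of the 6 compared, 3 were higher and 3 lower, beside 53% and 47% of all genes compared. In each direction 2 passed 1.5-fold, beside 5.31% of all genes upward and 3.9% downward. Among these, H4C11, H4C14 and H4C15 belong to the pairs of copies described below. H4C3 was at 6.57 and 4.96 TPM (0.71, interval 0.28 to 1.75).

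H4C14 (chromosome 1, 149832659 to 149839767) was at 6.76 and 3.997 TPM, with an interval below 1 (fragment ratio 0.43, interval 0.24 to 0.74). H4C15 (chromosome 1, 149854045 to 149861210) was at 0.39 and 1.64 TPM, with an interval above 1 (3.08, interval 1.39 to 7.74). These copies share 100% of the H4C14 words and 98.1% of the H4C15 words, so fragments can be assigned to either. One H4C14 transcript of 1547 nt was at 0.647 TPM without Dox and listed at 0 with Dox, and one H4C15 transcript of 1132 nt was listed at 0 and at 1.00 TPM. Together the pair was at 7.15 and 5.64 TPM (0.89, interval 0.59 to 1.35), and the opposite differences were not seen in the sum.

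H4C11 and H4C12 are another such pair. H4C11 was at 6.59 and 3.87 TPM and H4C12 at 4.99 and 6.69 TPM, and all words of the H4C12 model occur in H4C11. Their sum was 11.6 and 10.6 TPM (0.86, interval 0.43 to 1.72). H4C16 (chromosome 12, 14767999 to 14771131) stands alone outside the clusters and shares 0.313% of its words. It was at 1.49 and 5.04 TPM, from 10 and 19 fragments (1.46, interval 0.65 to 3.52). Of its value with Dox, 2.18 TPM lay on a transcript of 372 nt that was listed at 0 without Dox. A transcript of 448 nt was at 0.85 and 2.10 TPM. Both are annotated as processed transcripts with no coding sequence, while the protein-coding model of 577 nt was at 0.37 and 0.56 TPM.

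**Figure D3:**
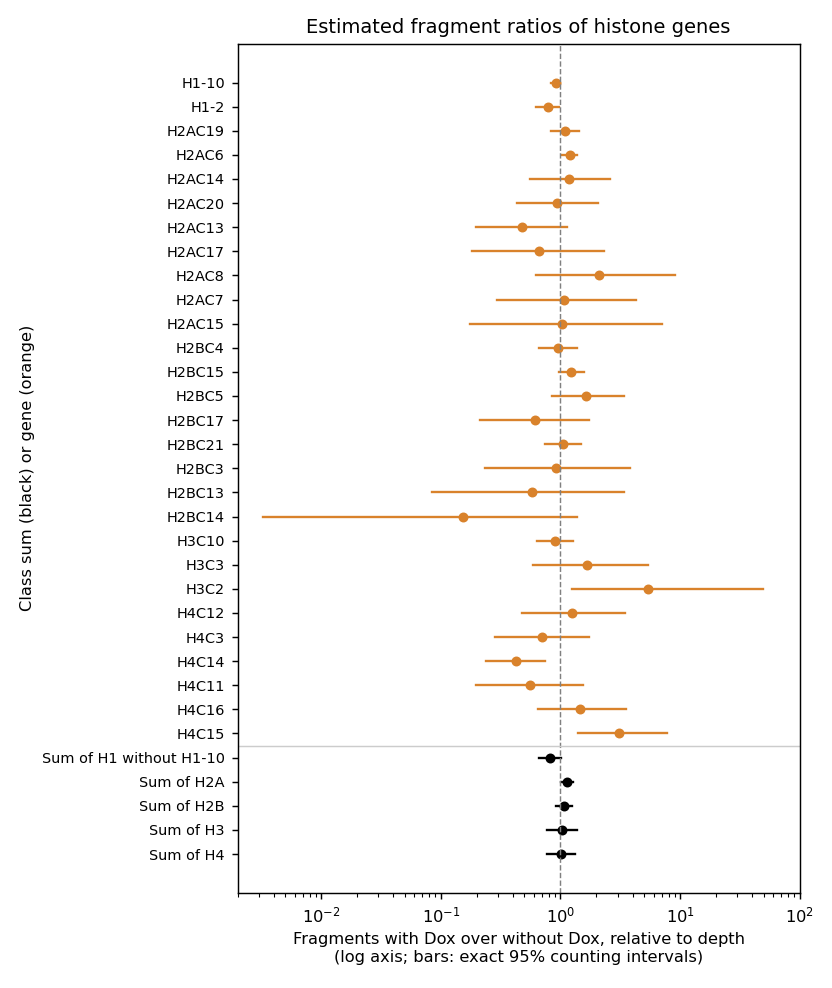
Estimated fragments with Dox over without Dox, relative to depth, on a log axis, for the 28 histone genes (orange) and the class sums (black), with exact 95% counting intervals as bars. The class sums lie between 0.82 and 1.14, while single genes reach from H2BC14 at 0.15 to H3C2 at 5.39, both from few fragments, and H2BC14 has the widest interval on this axis.

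The annotated transcript ends were compared next, since a polyadenylated transcript of these genes normally ends beyond the stem-loop. Leaving out H1-10, 34 transcripts of 26 genes with the same version in GENCODE release 29 run more than 10 bases past the stem-loop. They held 65.1 TPM without Dox and 68.8 TPM with Dox. Another 19 same-version transcripts of 11 genes, with no stem-loop in the model, held 17.4 and 20.7 TPM. The newer-version H2AC6 transcript, which runs past the stem-loop in release 29, held 6.16 and 9.13 TPM. The only same-version transcript ending within 10 bases of the stem-loop was listed at 0 in both libraries. Of 2 transcripts that end there in release 29 but were deposited in a newer version, 1 was above 0, that of H4C11. A further 39 newer-version transcripts with no stem-loop in the release 29 model held 65.3 and 64.1 TPM, and their ends in the deposited version are not known here. Of the 97 transcripts of the 70 genes, 43 were of a newer version than release 29, so the annotated end is known for only part of the signal. Salmon places fragments on listed models only. In release 29 few of these end at the stem-loop, and how many end there in the deposited versions is not known here. The sums therefore follow the annotation and do not show where the RNA ended.

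Most of the genes lie in clusters, 55 on chromosome 6 and 10 on chromosome 1. The 34 genes at chromosome 6, 25726132 to 26285638, summed to 76.2 TPM without and 84.2 TPM with Dox (fragment ratio 1.08, interval 0.98 to 1.20). The 16 genes at 27807444 to 27893843 summed to 43.2 and 35.7 TPM (0.98, interval 0.83 to 1.16). The 5 genes between them, at 27125897 to 27147515, were at 0.336 and 0.332 TPM. The 10 genes of the chromosome 1 cluster, at 149782689 to 149887916, were at 39.3 and 41.3 TPM (1.03, interval 0.86 to 1.23). The interval of each of the 3 clusters with a ratio given included 1.

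H2A and H2B genes often stand head to head and share a promoter region. There were 10 such pairs on opposite strands, with 219 to 331 bases between the starts. Both members were compared in 5 pairs, and they differed in the same direction in 3 (H2AC6 with H2BC4, H2AC13 with H2BC13 and H2AC17 with H2BC17) and in opposite directions in 2 (H2AC14 with H2BC14 and H2AC20 with H2BC21). In H2AC6 and H2BC4, the pair with the most signal, the log2 fold change was 0.27 for H2AC6 and 0.00 for H2BC4. That of H2AC20 was -0.003, so the direction given for both of these pairs rests on a value near 0. H2AC13 and H2AC14 are copies whose opposite directions were not held by their sum. The counts of pairs therefore do not show whether paired genes differed together.

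The promoters of the histone classes held common motifs in different shares, which were not tested. RefSeq promoters (GRCh38.p14, from 250 bases before to 50 bases after the start) were matched for 64 of the 70 genes and searched on both strands. CCAAT, the letters bound by NF-Y, was found in all 15 H2A, 17 H2B and 10 H3 promoters in 8 of 9 H1 promoters and in 3 of 13 H4 promoters, beside 34.6% of 35116 promoters of all genes. ATTTGCAT, the octamer bound by POU2F1, was found in 14 of 17 H2B and 11 of 15 H2A promoters and in 1 of 10 H3, 0 of 9 H1 and 0 of 13 H4 promoters, beside 1.77% of all. TATAAA was found in 42 of 64 promoters (65.6%), beside 11.5% of all. The 14 H2B genes with the octamer summed to 22.9 TPM without and 19.4 TPM with Dox, and the 3 without it to 10.7 and 12.03 TPM. Starts of head-to-head H2A and H2B genes lie 219 to 331 bases apart, so their windows overlap. The same match can then count for both genes, and the H2A and H2B shares are not independent. A match is a run of letters and not a shown site of binding.

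Replacement histones are mostly made outside S phase too, from ordinary polyadenylated mRNAs, while H2AX, described below, also makes a stem-loop mRNA. Of 9 compared, 2 were higher and 7 lower with Dox, beside 53% and 47% of all genes compared. Their median was -0.11, and only H2AX passed 1.5-fold (3.9% of all genes did so downward). Their interval lay below 1 for 7, beside 28.2% of all genes, and above 1 for 0, beside 23.9%. H2AJ, an H2A variant and one of the higher genes, was at 17.3 and 21.2 TPM (interval 0.92 to 1.58), and MACROH2A2, a macroH2A gene, was at 23.2 and 19.5 TPM. The genes H3-3A and H3-3B of the H3.3 protein were at 378 and 319 TPM (H3-3A) and 388 and 361 TPM (H3-3B). H2AZ1 was at 396 and 397 TPM. In summed TPM the H3C genes were 1.17% of the H3C and H3.3 total without Dox and 1.88% with Dox. The H2AC genes were 8.10% and 9.29% of the total of H2AC and 6 replacement H2A genes. The replacement genes thus made up most of the polyadenylated H2A and H3 RNA in both libraries.

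H2AX, the H2A variant phosphorylated at DNA breaks, is known to make both a stem-loop mRNA and a longer polyadenylated one. Its stem-loop began 50 bases after the stop codon and is shown beside those above because it has the H4 stem with the loop of the H2BC4 form.
H2AX form: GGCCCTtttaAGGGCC
H2AX read 26.2 TPM without and 13.4 TPM with Dox (-0.92 on the log2 scale, ratio of fragments 0.50, interval 0.43 to 0.58). Both of its listed transcripts run past the stem-loop, by 821 and 1044 bases, to a polyadenylation signal. They were at 7.87 and 3.15 TPM (the former) and 18.3 and 10.2 TPM (the latter), both lower with Dox. H2AC6, with listed models that also run past a stem-loop, was higher with Dox, so these genes did not differ in one direction.

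Of 24 factors that make and degrade histone mRNA, 9 were higher and 15 lower with Dox, beside 53% and 47% of all genes compared. Their median was -0.07. Their fragment interval lay below 1 for 12 and above 1 for 3, beside 28.2% and 23.9% of all genes compared. SLBP, which binds the stem-loop, read 67.7 TPM without and 64.5 TPM with Dox (fragment ratio 0.90, interval 0.84 to 0.97). TUT7, which adds uridines to decaying histone mRNA, was at 10.8 and 17.0 TPM, and the cleavage factor CSTF2 at 22.9 and 33.0 TPM. MIF4GD, a partner of SLBP in translation, was at 7.76 and 4.53 TPM, and the Sm protein gene SNRPF at 64.9 and 52.0 TPM. One gene in each direction (TUT7 and MIF4GD) passed 1.5-fold, beside 5.31% of all genes upward and 3.9% downward.

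Of 15 genes that drive histone gene transcription, 5 were higher and 10 lower (median -0.10), beside 53% and 47% of all genes compared. The interval lay above 1 for 1, beside 23.9% of all genes, and below 1 for 6, beside 28.2%. NPAT, the coactivator of histone loci, read 5.87 TPM without and 7.45 TPM with Dox, but its fragment ratio was 0.95 (interval 0.85 to 1.08). The kinase CDK2 and its cyclin CCNE1, which phosphorylate NPAT, were at 32.0 and 25.5 TPM (CDK2) and 19.3 and 13.7 TPM (CCNE1). CDC25A, the phosphatase that activates CDK2, was at 16.7 and 10.7 TPM, and E2F1 at 8.37 and 5.64 TPM. The intervals of these 4 genes lay below 1, while that of NPAT included it.

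Histone chaperones, which carry new histones to DNA, were lower in 18 of 21 cases, beside 47% of all genes compared. Their median was -0.15. The interval lay below 1 for 16, beside 28.2% of all genes, and above 1 for 3, beside 23.9%. None was lower by 1.5-fold, beside 3.9% of all genes. The H3-H4 chaperone NASP was at 318 and 263 TPM, NAP1L4 at 96.6 and 70.8 TPM, and the CAF-1 subunits CHAF1B and CHAF1A at 7.82 and 6.19 TPM and 19.4 and 15.8 TPM. DAXX, which deposits H3.3, was one of the 3 higher with Dox, at 10.9 and 19.5 TPM (fragment ratio 1.74, interval 1.54 to 1.97). All 21 replication fork and S phase genes were lower (median -0.46), beside 47% of all genes, and 4 passed 1.5-fold, beside 3.9%. RRM2, LIG1, FEN1 and CDC6 had the largest log2 fold changes, -1.28, -0.99, -0.74 and -0.73. The part of cell-cycle position in the histone values was not tested.

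**Figure D4:**
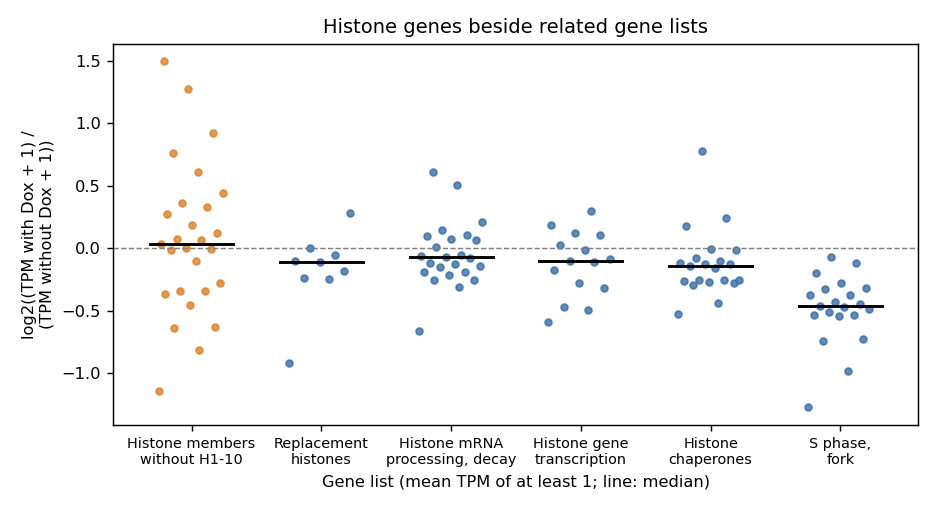
Log2((TPM with Dox + 1)/(TPM without Dox + 1)) for each gene with a mean of at least 1 TPM in the histone list without H1-10 (orange) and in 5 related lists (blue), with a black line at each median. The histone genes spread from -1.15 to 1.498 around a median of 0.03, while the replication fork and S phase genes all lie below 0 with a median of -0.46.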

How the data were processed

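The authors deposited TPM values for 184844 Ensembl transcripts in 2 libraries. Trimmomatic, Salmon and GRCh38.p13 were used, per the submitters' processing notes, while no version, option or annotation release was given in the sources used here. Salmon shares fragments among transcripts that match equally well, so values of near-identical copies can move between copies. Transcripts were named through GENCODE release 29 (161798 matched) and current symbols, with 4 histone genes matched through older symbols, and TPM was summed per gene and class. One gene of the rule is not reported here and is in no sum, count or plot of the histone genes.

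A pseudocount of 1 TPM was added before log2 fold changes (with Dox over without Dox) were taken, so changes of low genes are understated. Ratios of sums have no pseudocount. Fragments were estimated from the steps of low values on transcripts of at least 300 nt: 564 of 656 values without Dox (86.0%) and 588 of 676 with Dox (87.0%), each worth under 5.5 fragments, lay within 0.1 of a whole number. The fit used these same values. For newer-version single-exon transcripts, RefSeq lengths were used. These gave 29 of 39 values within 0.1 of a whole number, against 6 with release 29 lengths. For H3C4 and H2BC12 no length was used, so they are in the TPM sums but in no fragment sum. The procedure was tested on simulated data.

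The text names SAMD4B, every other histone gene of the rule with a mean of at least 1 TPM, of each related list up to 4 genes with the largest absolute log2 fold change among those averaging 5 TPM or more, and SLBP and NPAT. Other genes named, such as H3-3B, H2AZ1 and NASP, were chosen after their values were seen. The members and lists were chosen with earlier results of these data known. Analyses used Python 3.11.15, numpy 2.4.6, pandas 2.3.3 and scipy 1.17.1, and figures matplotlib 3.10.9. Alternatives covered pseudocount, filter, transcript types, fragments in place of TPM and left-out genes.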

Additional observations from a re-analysis of the deposited data

How the results depend on the processing

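Taking the width of the fragment interval around each log2 TPM ratio, the all-gene, H1, H2A, H2B and H4 sums stayed inside it under all 6 alternatives each. For H2A that range, unlike the fragment interval itself, included 0, and the H2B value without H2BC4, -0.14, lay below the printed fragment interval. The median of the compared genes, 0.02, stayed between -0.02 and 0.03 under 10, with both signs. The log2 ratio of all 70 genes, 0.017, ranged from -0.019 in fragments to 0.054 without H1-10. That of class H3, 0.53, was 0.042 in fragments, 1.03 without H3C10 and -0.15 without H3C2 and H3C3. The settings without H3C2 and H3C3, and the median and counts without H1-10, were chosen after seeing the data. The count of genes at least 1.5-fold higher, 5, was 2 with a pseudocount of 5 TPM, 0 at a mean of at least 5 TPM (fewer genes tested, 11) and 3 with protein-coding transcripts only. The count lower, 4, was 0 and 2 under the first 2 of these. Of all TPM of the genes without H1-10, 4.10% without Dox and 2.32% with Dox lay on transcripts whose release 29 model ends at the stem-loop, all of it on the newer-version H4C11 transcript, whose deposited end is not known here. This was 25.7% and 23.7% when an end within 50 nt counted in place of 10 nt. The H2B log2 ratio of -0.09 was 0.09 in fragments, and the H4 log2 ratio of 0.03 was -0.07 without H4C12, -0.12 with protein-coding transcripts only and -0.20 without transcripts listed at 0 in one library and at 1 TPM or more in the other. The cause was not tested. No paired analysis was possible because each group has 1 library. Depth limits single genes: 1 fragment on a transcript of 500 nt is 0.328 TPM without Dox and 0.269 TPM with Dox.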
